A study of Mus musculus with 9 samples.

Results

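Follicular B cell genes are described here by 8 members that were fixed by name: Cd79a, Cd79b, Ms4a1, Cd22, Fcmr, Cr2, Pax5 and Cxcr5. They are 8 of the 55401 entries in the deposited mouse table, and all 8 passed the filter of a mean of at least 1 FPKM (fragments per kilobase of gene, scaled to library size) that left 14506 genes to test. Whole colonic tissue from wild-type animals was sequenced in 9 libraries, 3 per group. The first group received chow and AOM/DSS, and the second received a high-fat diet and AOM/DSS. AOM/DSS, an abbreviation in the labels, usually stands for azoxymethane, a carcinogen, followed by dextran sulfate sodium, which injures the colon lining. The third group is labelled berberine, a plant alkaloid, and its labels name neither its diet nor AOM/DSS. The labels do not say that each library came from its own animal, and they give no strain, age or dose. The p-values therefore measure the spread between these libraries, which may be technical. The comparison of the 3 groups was made, per the series title, to look at an antitumour effect of berberine through gene expression.

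Follicular B cells are the resting, recirculating B cells that fill the lymphoid follicles of spleen, lymph nodes and gut. In the colon they sit in solitary isolated follicles and in larger colonic patches, where the chemokine Cxcl13 draws them in through its receptor Cxcr5. Their antigen receptor is a surface immunoglobulin that signals through the Cd79a and Cd79b chains, and Pax5 keeps the cells in the B lineage until they become plasma cells. None of the 8 genes belongs to the follicular B cell alone: Cd79a, Cd79b, Ms4a1, Cd22 and Pax5 are made by most B cells, Cr2 also by follicular dendritic cells, and Cxcr5 also by follicular helper T cells. In bulk tissue, fewer cells of a type and less RNA per cell cannot be told apart.

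The members are spread over 6 chromosomes. On GRCm38, as the deposited table gives the genes, Cd79a (ENSMUSG00000003379) lies at chr7:24897381-24902197 on the plus strand, and Cd22 (ENSMUSG00000030577) lies on the same chromosome at chr7:30865402-30880342 on the minus strand. Fcmr (ENSMUSG00000042474) at chr1:130865669-130880791, plus strand, shares its chromosome with Cr2 (ENSMUSG00000026616) at chr1:195136811-195176716, minus strand. The other 4 each lie alone. Cd79b (ENSMUSG00000040592) is at chr11:106311341-106314762, Ms4a1 (ENSMUSG00000024673) at chr19:11249675-11266241, Pax5 (ENSMUSG00000014030) at chr4:44524757-44710487 and Cxcr5 (ENSMUSG00000047880) at chr9:44511787-44561877, all on the minus strand. Values cover whole genes, introns and exons not being separated. Genes that overlap Ms4a1, Cd22 or Pax5 had a mean of at most 0.26 FPKM, against 3.85 FPKM or more for the member they overlap.

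Promoters are shown for 3 members because they mark the ends of the pattern described further on: the fall of Cd22 and Fcmr under high-fat diet passed the test in every analysis run, and that of Cr2 in none. Each is the 250 bases before the RefSeq gene start on GRCm38.p6, read 5′ to 3′ on the gene's strand, with the letters of a searched motif in capitals.
Cd22 promoter, chr7:30879029-30879278, minus strand: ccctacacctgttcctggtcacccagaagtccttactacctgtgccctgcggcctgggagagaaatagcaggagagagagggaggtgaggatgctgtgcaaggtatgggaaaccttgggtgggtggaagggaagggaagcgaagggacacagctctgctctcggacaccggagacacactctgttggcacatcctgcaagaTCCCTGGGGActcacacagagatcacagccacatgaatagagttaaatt
Fcmr promoter, chr1:130865527-130865776, plus strand: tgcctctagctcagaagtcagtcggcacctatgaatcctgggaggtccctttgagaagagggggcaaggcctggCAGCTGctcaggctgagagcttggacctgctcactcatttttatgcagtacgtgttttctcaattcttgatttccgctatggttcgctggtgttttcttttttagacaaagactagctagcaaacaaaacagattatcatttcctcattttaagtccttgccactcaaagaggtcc
Cr2 promoter, chr1:195176720-195176969, minus strand: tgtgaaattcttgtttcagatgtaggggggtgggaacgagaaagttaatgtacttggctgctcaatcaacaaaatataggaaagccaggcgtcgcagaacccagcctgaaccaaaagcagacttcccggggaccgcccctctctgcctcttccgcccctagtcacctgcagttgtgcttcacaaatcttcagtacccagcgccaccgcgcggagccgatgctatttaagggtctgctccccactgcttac

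In the Cd22 promoter the capitals mark TCCC and GGGA with any 2 bases between, a palindromic form of the site of the B cell factor EBF1, at position -49 from the RefSeq start. In the Fcmr promoter they mark CAGCTG, an E-box that E2A proteins can bind, at position -176. The Cr2 promoter held none of the 4 motifs searched on both strands, which says only that these letters are not in this window. Promoters were matched for 5 of the 8 members: Cd79a, Cd22, Fcmr, Cr2 and Pax5. This EBF1 palindrome was in 1 of these 5 and in 0.779% of 32851 mouse promoters of the same length, and CAGCTG was in 1 of 5 and in 13.0%. The octamer ATGCAAAT was in 0 of 5 and in 1.60% of all, and the PU.1 core GAGGAAGT in 0 of 5 and in 2.44%. The RefSeq start of Cd22 lies 1314 bases inside the gene as the deposited table draws it, and that of Fcmr 108 bases inside, so the whole Cd22 window and part of the Fcmr window are within the longer gene models.

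RNA of other tissues was uneven between libraries. Chow replicate 3 had a summed FPKM of 574 over 8 striated muscle genes and the other libraries 21.2 or less, and Myh1, one of them, was at a count of 0 in 5 libraries. The sum over 8 squamous epithelial genes was highest in chow replicate 1, at 149. The sum over 10 fat cell genes was 394 and 301 in berberine replicates 1 and 2, 22.5 in replicate 3, 14.5 to 23.2 under high-fat diet and 46.9 to 93.0 under chow. Totals ran between 51961764 and 69007117 estimated counts per library, and the epithelial gene Epcam lay between 1386 and 2078 CPM (counts scaled to a common library size, with TMM factors) in all 9. Of the members, the lowest count was 281, or about 70.3 sequenced fragments (Cxcr5, high-fat diet replicate 3), and the highest was 14435 (Cd79a, berberine replicate 1).

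In mean level per length, Cd79a and Cd79b came before all other members in every group. Under chow the mean FPKM was 68.8 ± 22.5 for Cd79a, 38.3 ± 14.1 for Cd79b and 20.8 ± 5.76 for Fcmr (SD, n = 3), and the libraries of neighbours in this order did not overlap. Cd22, Ms4a1, Cxcr5 and Pax5 followed with means of 10.1, 6.85, 5.37 and 4.39 FPKM, each overlapping the next within its spread. Cr2 was lowest at 3.22 ± 0.198 FPKM, and its libraries lay below those of Pax5. Under high-fat diet the first 5 places were unchanged, from 32.5 ± 12.9 FPKM for Cd79a to 3.79 ± 1.40 for Ms4a1. Cr2, at 2.84 ± 1.27 FPKM, then stood above Cxcr5 at 1.99 ± 0.931 and Pax5 at 1.76 ± 0.915 in each of the 3 libraries, although the ranges of neighbours overlapped. In the berberine group Cr2 was last again at 5.33 ± 2.07 FPKM, overlapping Pax5 at 5.41 ± 2.29, below Cd79a at 120.9 ± 44.0.

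The first comparison, high-fat diet against chow with AOM/DSS in both, found 7 of the 8 members lower under high-fat diet. Of all 14506 tested genes, 31.8% passed the test (Benjamini-Hochberg adjusted p under 0.05 over all tested genes, edgeR's quasi-likelihood test), 16.6% as lower. The median log2 fold change was -1.37 over the members and 0.0015 over all tested genes. The falls ran from -0.98 for Ms4a1 to -1.69 for Fcmr, and Cr2 did not pass the test. The libraries of the groups did not overlap for the same 7 members, with high-fat diet lower, as for 22.6% of tested genes.

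**Figure D1:**
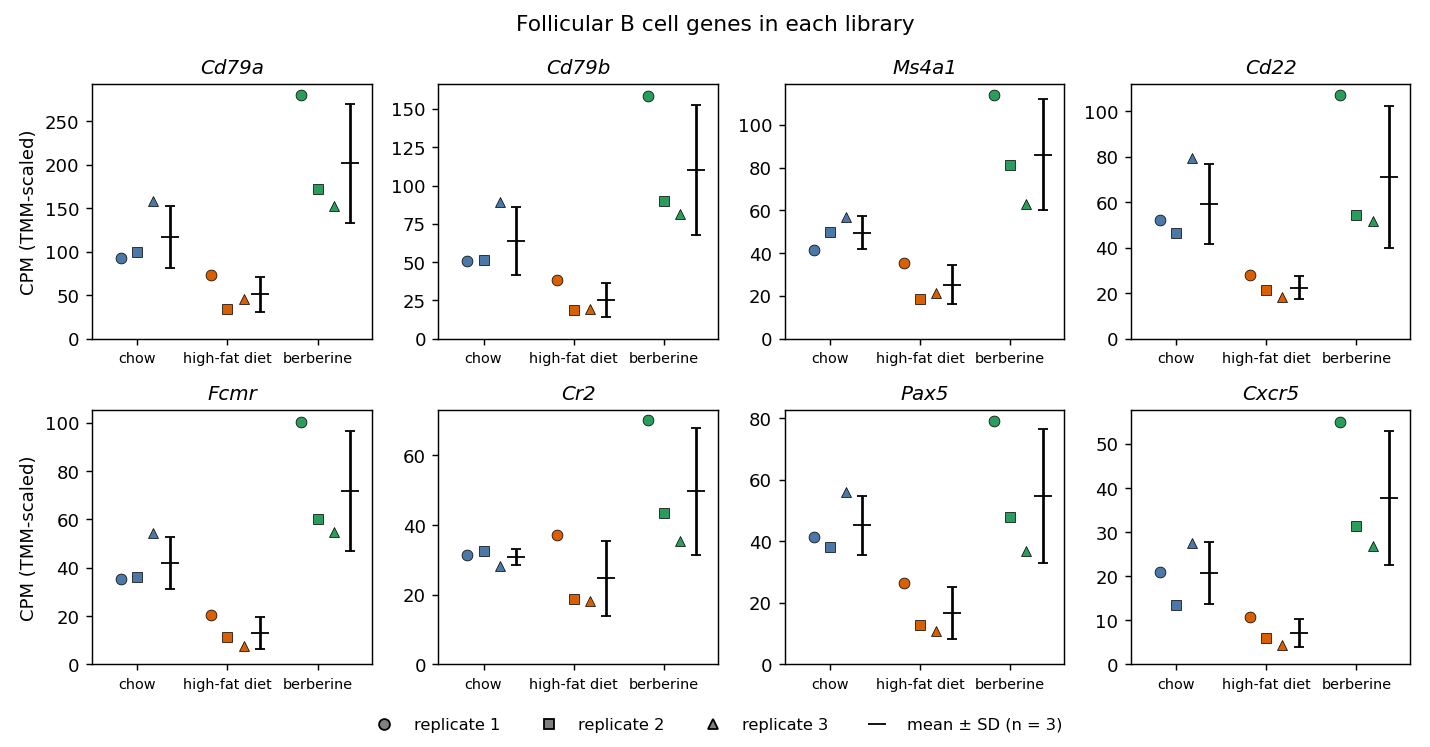
Level of each of the 8 members in the 9 libraries. Points are single libraries in CPM on a linear axis, 1 panel per gene, with the mean ± SD of each group of 3 beside them. In 7 panels every high-fat diet library lies below every chow library, and for Cr2 high-fat diet replicate 1, at 37.2 CPM, lies above all chow libraries.

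The receptor chains are described first. Cd79a was at 92.7, 99.3 and 158 CPM under chow (replicates 1, 2 and 3) and at 72.6, 34.0 and 45.7 CPM under high-fat diet. Its highest chow library was replicate 3 and its highest high-fat diet library replicate 1, and the lowest chow value was still above the highest high-fat diet value. Its log2 fold change was -1.20 ± 0.35 (SE; edgeR adjusted p = 0.0293), or 2.30-fold lower.

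Cd79b, the partner chain that signals in the same receptor, had the same order of libraries within each group as Cd79a. It was at 51.0, 51.2 and 89.4 CPM under chow and at 38.0, 18.4 and 19.3 CPM under high-fat diet, with no overlap. Its log2 fold change was -1.34 ± 0.38 (edgeR adjusted p = 0.0284). The ratio of the 2 chains varied little: log2 of Cd79b over Cd79a in FPKM was between -0.93 and -0.79, except in high-fat diet replicate 3, at -1.22.

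Among the surface proteins, Ms4a1 encodes CD20, the target of B cell depleting antibodies. It was at 41.7, 50.1 and 56.9 CPM under chow and at 35.5, 18.4 and 21.6 CPM under high-fat diet, with high-fat diet replicate 1 just below the lowest chow library. Its log2 fold change of -0.98 ± 0.29 (edgeR adjusted p = 0.0330) was the smallest of the 7.

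Cd22 is a sialic acid binding receptor that dampens B cell receptor signals. It stood at 52.0, 46.5 and 79.5 CPM under chow and at 27.9, 21.2 and 18.2 CPM under high-fat diet. The high-fat diet libraries were close together and the groups were well apart. Cd22 thus changed by -1.40 ± 0.33 on the log2 scale (edgeR adjusted p = 0.0136).

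Fcmr, the receptor for the Fc part of IgM, showed the largest change of the 8. Its levels were 35.5, 36.2 and 54.5 CPM under chow and 20.5, 11.2 and 7.55 CPM under high-fat diet. The high-fat diet libraries differed by 2.71-fold among themselves, and all lay below chow. The log2 fold change was -1.69 ± 0.39 (edgeR adjusted p = 0.0124), or 3.22-fold lower.

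Cr2 encodes the complement receptors CD21 and CD35, which on B cells lower the threshold for activation by antigen and on follicular dendritic cells hold complement-coated antigen. It was at 31.5, 32.5 and 28.1 CPM under chow, the narrowest chow spread of the members, and at 37.2, 18.9 and 18.3 CPM under high-fat diet. High-fat diet replicate 1 was above every chow library and the other 2 were below, so the groups overlapped. The log2 fold change was -0.31 ± 0.33 with a 95% interval from -1.05 to 0.43 (edgeR adjusted p = 0.507), an interval that still holds a fall of the size seen for Ms4a1.

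Pax5, the transcription factor that fixes B cell identity, was at 41.4, 38.2 and 56.1 CPM under chow and at 26.4, 13.0 and 10.8 CPM under high-fat diet. The log2 fold change was -1.44 ± 0.39 (edgeR adjusted p = 0.0233). Cxcr5, the receptor that leads B cells into follicles, was at 21.1, 13.6 and 27.6 CPM under chow and at 10.7, 6.10 and 4.52 CPM under high-fat diet. High-fat diet replicate 1 was again the highest of its group for both genes, and no high-fat diet library reached a chow library. The log2 fold change of Cxcr5 was -1.54 ± 0.41 (edgeR adjusted p = 0.0219).

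The libraries moved together across members. Chow replicate 3 was the highest chow library for 7 members and the lowest for Cr2. High-fat diet replicate 1 was the highest of its group for 8 of 8 members. The call rested on single libraries for most members: without chow replicate 3, 2 members passed the test (Cd22 and Fcmr). The same 2 passed without high-fat diet replicate 2 and without high-fat diet replicate 3. Of 14506 tested genes, 4254, 3573 and 3896 passed in these fits, so 2 of 8 was close to the share over all genes. Without chow replicate 1 Cxcr5 did not pass, and without chow replicate 2 or berberine replicate 2 Ms4a1 did not, leaving 6 each time. Chow replicate 3 also carried the striated muscle signal, and its part in these results was not tested beyond leaving it out: the median over the members was then -1.07. Cd22 and Fcmr passed the test in 21 of 21 alternatives run, Cd79a, Cd79b and Pax5 in 17, Cxcr5 in 16, Ms4a1 in 12 and Cr2 in 0.

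**Figure D2:**
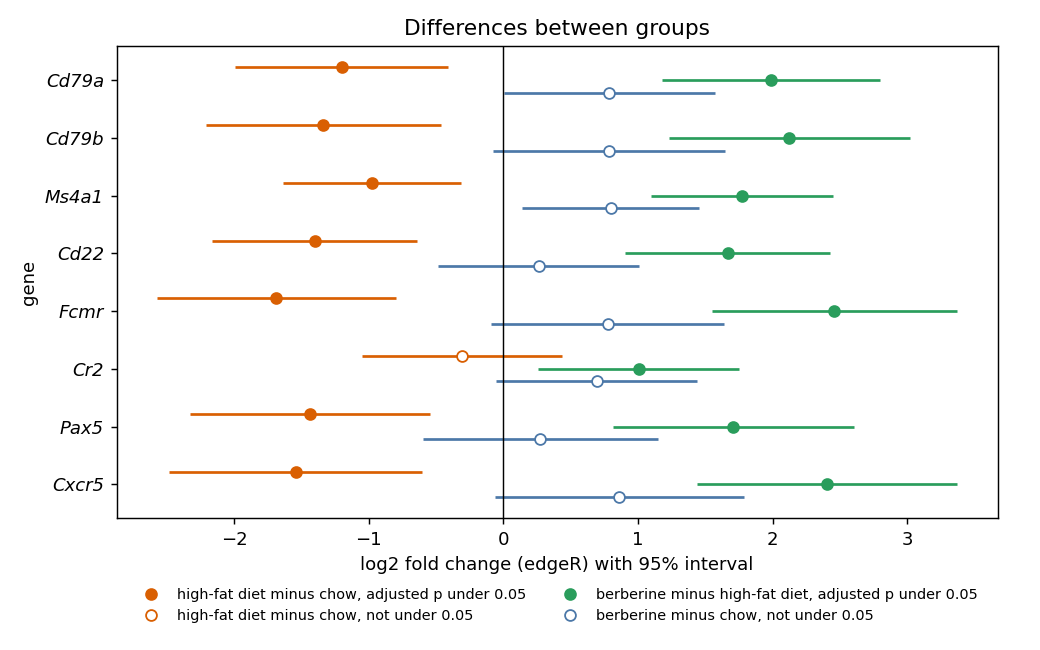
Log2 fold change of each member in the 3 comparisons, with points at the estimate and bars for the 95% interval of edgeR's fit. Points lie left of 0 for high-fat diet against chow, between -1.69 and -0.31, right of 0 for berberine against high-fat diet, between 1.0 and 2.46, and between 0.26 and 0.86 for berberine against chow.

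The second comparison set the berberine group against the high-fat diet group, which also served as one side of the first, so the values of the 2 comparisons are not independent. All 8 members were higher in the berberine group, where 30.7% of tested genes passed the test and 15.8% passed as higher. The median over the members was 1.88 on the log2 scale and that over all tested genes was -0.007. Groups did not overlap for 7 members, as for 24.8% of tested genes with berberine higher, and Cr2 was the exception.

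Cd79a was at 279.7, 172 and 152 CPM in the berberine libraries, all above the highest high-fat diet value, and its log2 fold change was 1.99 ± 0.35 (edgeR adjusted p = 0.00412). Cd79b was at 159, 90.0 and 81.5 CPM, with a log2 fold change of 2.12 ± 0.39 (edgeR adjusted p = 0.00478). Both chains were about 4 times their high-fat diet level, with folds of 3.97 and 4.36. Replicate 1 was the highest berberine library for each.

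Fcmr, the member that fell most, also rose most. It was at 100.5, 60.3 and 55.0 CPM in the berberine libraries, and its log2 fold change was 2.46 ± 0.40 (edgeR adjusted p = 0.00279), or 5.50-fold. Cxcr5 came next at 55.1, 31.3 and 26.8 CPM, all above every high-fat diet library, and its log2 fold change was 2.40 ± 0.43 (edgeR adjusted p = 0.00397).

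The other B cell surface genes rose less. Ms4a1 was at 114, 81.1 and 63.1 CPM (log2 fold change 1.77 ± 0.30, edgeR adjusted p = 0.00312). Cd22 was at 107, 54.4 and 51.7 CPM (1.66 ± 0.34, edgeR adjusted p = 0.00696). For each of them the lowest berberine library was above all high-fat diet libraries. Pax5 was at 79.0, 48.0 and 36.9 CPM (1.71 ± 0.39, edgeR adjusted p = 0.0123), also without overlap.

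Cr2 was at 70.2, 43.5 and 35.5 CPM in the berberine libraries. Its lowest berberine library lay below high-fat diet replicate 1, at 37.2 CPM, so the groups overlapped. Its log2 fold change was 1.0 ± 0.33 (edgeR adjusted p = 0.0478), just past the threshold. It passed in 6 of 21 alternatives, with adjusted p between 0.0104 and 0.466. Leaving out any chow library, high-fat diet replicate 2 or 3, or berberine replicate 1 or 2 ended its call.

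Within the berberine group replicate 1 was the highest library and replicate 3 the lowest for 8 of 8 members. Berberine replicates 1 and 2 were also the libraries with high fat cell genes, such as Adipoq, which encodes adiponectin, at 60.9 and 49.1 CPM against 0.313 CPM in replicate 3. The part of this in the members' rise was not tested. Replicate 3 taken alone against the high-fat diet group gave a median of 1.45 over the members, an effect size that rests on 1 library. Without berberine replicate 1 the median was 1.60, and 7 members passed the test, as did 3465 of 14506 tested genes.

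The third comparison, berberine against chow, shares its groups with the first 2. No member passed the test by edgeR, DESeq2 or limma, where 0.0483% of tested genes passed by edgeR, and adjusted p-values of the members were between 0.390 and 0.833. The members' log2 fold changes were all above 0, from 0.26 for Cd22 to 0.86 for Cxcr5 with a median of 0.78, against -0.002 over all tested genes. At an unadjusted p under 0.05, 2 members passed, Cd79a and Ms4a1, as did 10.9% of tested genes. For Ms4a1 the log2 fold change was 0.80 ± 0.29 with a 95% interval from 0.14 to 1.46. For Pax5 it was 0.27 ± 0.38 with an interval from -0.60 to 1.14, which leaves room for a difference in either direction. The groups did not overlap for 3 members (Ms4a1, Fcmr and Cr2), with berberine higher, as for 8.73% of tested genes.

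Relative to each other, Cr2 showed the largest group difference of the members. For each library, the log2 CPM of a member was taken less the mean log2 CPM over the other 7. This value is relative and says nothing about which side changed. For Cr2 it was -0.48, -0.36 and -1.23 in the chow libraries, 0.38, 0.28 and 0.34 in the high-fat diet libraries and -0.69, -0.63 and -0.71 in the berberine libraries. All 3 high-fat diet libraries were thus above the other 6, by 1.02 over chow and 1.01 over berberine on the log2 scale. An exact permutation test of 3 libraries against 3 cannot go below 0.1, and both differences gave p = 0.1 (two-sided). As a share of the members' summed FPKM, Cr2 made up 1.41 to 2.58% under chow, 3.66 to 4.17% under high-fat diet and 1.89 to 2.05% in the berberine group.

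**Figure D3:**
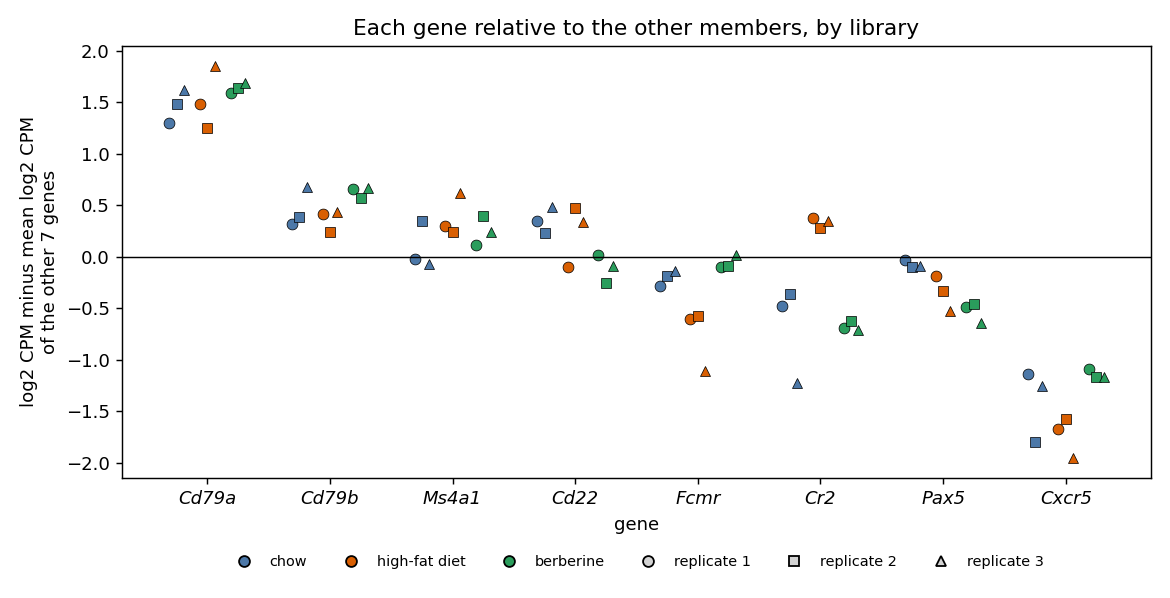
Each member's log2 CPM less the mean log2 CPM of the other 7 members, by library. Points are single libraries, grouped as chow, high-fat diet and berberine, and 0 on the axis is the mean of the other members. Cr2 lies between 0.28 and 0.38 under high-fat diet and at -0.36 or less elsewhere, while Fcmr lies lowest under high-fat diet.

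Fcmr went the other way. Relative to the other 7 it was at -0.28, -0.18 and -0.14 under chow, at -0.61, -0.58 and -1.11 under high-fat diet and at -0.10, -0.09 and 0.01 in the berberine group. The differences were -0.56 for high-fat diet less chow and 0.71 for berberine less high-fat diet, each without overlap (exact permutation p = 0.1). For Pax5 the difference of high-fat diet less chow was -0.28, also without overlap (exact permutation p = 0.1). Between berberine and chow, Pax5 was lower by 0.46 and Cd22 by 0.47 relative to the other members, again without overlap and with exact permutation p = 0.1. Over the 24 such exact permutation tests (8 members in 3 comparisons) 10 reached p = 0.1, and the smallest Benjamini-Hochberg adjusted value was 0.24, so none passed a threshold.

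Genes with the pattern most like the members were looked for over the 9 libraries, as Pearson's r with the members' mean after centring, a description with no test. Members, predicted or clone-named genes, and immunoglobulin and T cell receptor genes were left out of this search. Of the 8 nearest among the remaining tested genes, 7 are given here: Blk (0.991), Siglecg (0.991), H2-Oa (0.991), H2-DMb1 (0.990), Fmnl1 (0.989), Sash3 (0.989) and Gpr183 (0.988). Blk is a Src family kinase of B cells, Siglecg a sialic acid binding receptor, H2-Oa and H2-DMb1 chains that control peptide loading of MHC class II, and Gpr183 a receptor that positions B cells in the follicle. Libraries of 1 group share diet and treatment, so 9 points do not stand for 9 independent conditions. The members' own r with that mean, themselves included, was between 0.968 and 0.996 for 7 and 0.887 for Cr2.

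Other genes of the B cell were followed in lists that do not hold the members. Neither these lists nor those for other cells are limited to genes that a single cell type makes. This holds for genes that fell as well as for genes that rose. Of 19 tested surface partners, 10 fell and 2 rose under high-fat diet (median -0.99), where 16.6% of all tested genes fell. The 2 that rose, Cd81 (0.82 ± 0.15) and Cd24a (1.12 ± 0.28), are made by many other cells, and Cd74, the MHC class II invariant chain, fell by 1.26 ± 0.28 on the log2 scale. Without chow replicate 3 the count of lower genes was 1, and it ran up to 11 when other libraries were left out: it was 2 without high-fat diet replicate 2, 3 without high-fat diet replicate 3, 5 without chow replicate 2 and 6 without chow replicate 1 or berberine replicate 2. It was 5 with library totals alone or no filter and 6 with only the 2 groups compared, and without chow replicate 1 the count of higher genes was 1. In the berberine group against high-fat diet, where 15.8% of all tested genes rose, 14 of 19 rose and 2 fell (median 1.64). Fcer2a, the CD23 of resting follicular B cells, was among those that moved both times, at 48.0 ± 18.3 CPM under chow, 12.2 ± 10.5 under high-fat diet and 72.5 ± 31.5 in the berberine group.

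With berberine against high-fat diet, 9 of 18 tested genes that carry the receptor's signal rose and 0 fell (median 0.79). Of all tested genes, 15.8% rose there. Under high-fat diet 3 of the 18 fell and 1 rose (median -0.29), close to the 16.6% of all tested genes that fell. The 3 were Blk (-1.47 ± 0.36), the adaptor Bank1 (-1.76 ± 0.44) and the exchange factor Rasgrp3, while the adaptor Pik3ap1 rose (0.95 ± 0.26), a rise that did not pass without chow replicate 1 or 2 or high-fat diet replicate 1 or 2. Without high-fat diet replicate 2, 0 were lower, and without replicate 1 of that group 6 were. Of 13 tested lineage transcription factors, 4 fell and 2 rose (median -0.81), and 2 to 5 fell when 1 library was left out, with 2 without chow replicate 3, high-fat diet replicate 2 or high-fat diet replicate 3. It was also 2 with library totals alone, no filter or edgeR's own filter, and 1 rose without chow replicate 1 or high-fat diet replicate 1. Irf4 fell by 1.47 ± 0.33 and Foxo1 by 0.81 ± 0.18 on the log2 scale, and Tcf3, which encodes E2A and is widely expressed, rose by 1.25 ± 0.14.

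Of the 6 surface immunoglobulin constant genes, 2 fell under high-fat diet, and 1 did so without chow replicate 3, high-fat diet replicate 2 or high-fat diet replicate 3, and with library totals alone or only the 2 groups compared. Ighd and Ighm, the heavy chains that resting B cells carry on the surface, fell by 1.86 ± 0.44 and 1.25 ± 0.37 on the log2 scale under high-fat diet (edgeR adjusted p = 0.0137 and 0.0320). Ighd was at 88.1, 67.9 and 161 CPM under chow and at 44.2, 24.4 and 18.5 CPM under high-fat diet, with no overlap. Igha, the heavy chain of gut plasma cells, was at 1284, 2577 and 4116 CPM under chow and at 1623, 2274 and 1787 CPM under high-fat diet, where the groups overlapped (log2 fold change -0.49 ± 0.38, edgeR adjusted p = 0.363). In the berberine group Igha was at 5124, 6359 and 5210 CPM. That was above every high-fat diet library, with a log2 fold change of 1.55 ± 0.39 (edgeR adjusted p = 0.0167). Of 12 tested plasma cell genes, 1 fell (Derl3) and 1 rose (Sdc1, also an epithelial proteoglycan) under high-fat diet against chow. Of all tested genes, 31.8% passed the test, 16.6% as lower. The count of lower plasma cell genes ran from 0 to 2 with 1 library left out. It was 0 without any one of the 3 berberine libraries, chow replicate 2, or high-fat diet replicate 1 or 3, and 2 without chow replicate 1. Against high-fat diet, the berberine group had 6 of 6 surface immunoglobulin constant genes and 5 of 12 plasma cell genes higher. In that comparison 15.8% of all tested genes passed as higher. Constant regions of the lambda family resemble each other, and reads could be split between them by the counting.

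Of 12 germinal centre genes tested, 3 fell under high-fat diet (Fas, Stap1 and Il21r) and 1 rose, where 31.8% of all tested genes passed the test. Basp1, the gene that rose, is expressed by many cell types and changed by 2.72 ± 0.30. Without chow replicate 3, high-fat diet replicate 2 or high-fat diet replicate 3, 1 was lower. In the berberine group against high-fat diet 3 were higher and 1 was lower, where 15.8% of all tested genes passed as higher. Without berberine replicate 3, 6 were higher.

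Signals that build and fill a follicle were followed as well. Of 19 tested follicle-forming genes, 9 fell and 0 rose under high-fat diet (median -0.98), where 16.6% of all tested genes fell. In the berberine group against high-fat diet 12 rose and 1 fell (median 1.71), where 15.8% of all tested genes rose. Cxcl13, the ligand of Cxcr5, was at 42.8, 52.7 and 74.4 CPM under chow, at 32.9, 16.0 and 19.3 under high-fat diet and at 91.9, 84.6 and 72.0 in the berberine group. As with Cxcr5, no high-fat diet library reached the other 2 groups, and the log2 fold changes of Cxcl13 were -1.32 ± 0.30 and 1.87 ± 0.30. The count of 9 was 5 without high-fat diet replicate 2.

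Of the follicle-forming list, 3 genes named for their small p values are linked to the T zone. Ccl21a, a chemokine of lymphatic vessels and T zones, was at 116, 64.5 and 161 CPM under chow and at 16.6, 11.6 and 14.9 CPM under high-fat diet, a log2 fold change of -2.98 ± 0.33. Its receptor Ccr7 fell by 2.27 ± 0.51 and Ccl19 by 3.61 ± 0.65 on the log2 scale. Of 13 tested genes of follicular dendritic cells and high endothelial vessels, 7 fell and 1 rose under high-fat diet (median -0.90). In the berberine group against high-fat diet 7 rose and 1 fell (median 1.28). Of all tested genes, 16.6% fell in the first of these comparisons and 15.8% rose in the second. Madcam1, the gut homing address on these vessels, fell by 1.94 ± 0.30, Glycam1 fell by 3.58 ± 0.68, and Chst4, an enzyme that sulfates vessel ligands, fell by 2.08 ± 0.42. Ccl19 and Glycam1 were at most 1.48 CPM in the high-fat diet libraries.

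**Figure D4:**
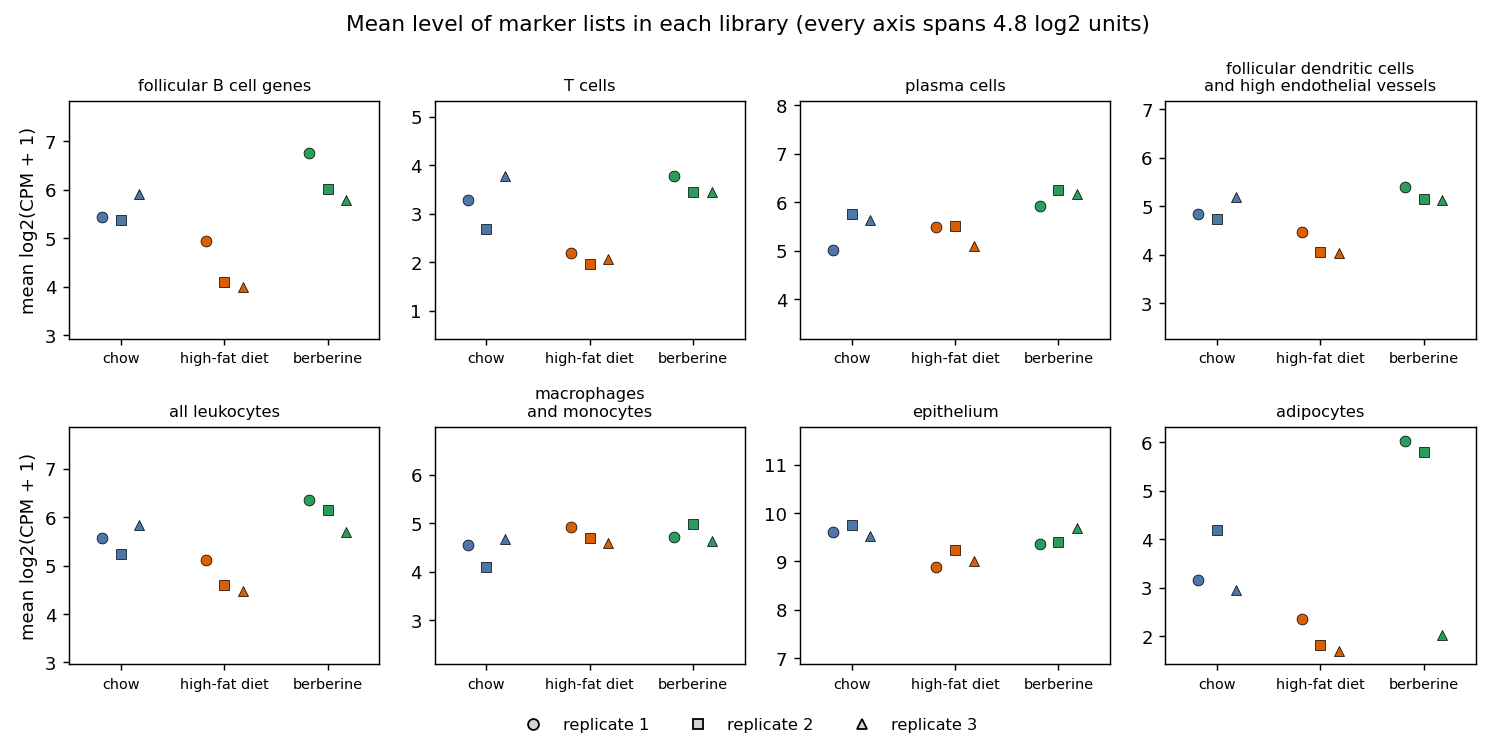
Mean log2(CPM + 1) of the 8 members and of gene lists for other cell types in each of the 9 libraries. Points are libraries coloured by group. The members lie between 4.0 and 4.94 under high-fat diet, between 5.38 and 5.92 under chow and between 5.80 and 6.75 in the berberine group.

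Genes of other cell types moved too, and their part in the members' values was not tested. Of 14 tested T cell genes, 10 fell and 1 rose under high-fat diet (median -1.71), where 16.6% of all tested genes fell. In the berberine group against high-fat diet 12 rose and 1 fell, where 15.8% of all tested genes rose. Summed FPKM of the 18 T cell genes was 82.0, 48.5 and 131 under chow, 29.1 to 48.8 under high-fat diet and 87.9 to 133 in the berberine group, while that of the 8 members was 134, 125 and 214, then 52.6 to 104, then 194 to 387. Cd8b1 was at 0 in 1 library. The members' mean less that of the T cell list was 2.15, 2.69 and 2.13 under chow, 2.75, 2.13 and 1.94 under high-fat diet and 2.98, 2.56 and 2.35 in the berberine group on the log2 scale. These ranges overlapped between all groups. Leaving out 1 library gave 8 to 11 lower T cell genes.

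The members were also set against genes of all leukocytes. The members' mean less that of 12 leukocyte genes was -0.14, 0.13 and 0.07 under chow, -0.18, -0.50 and -0.47 under high-fat diet and 0.41, -0.13 and 0.10 in the berberine group. High-fat diet did not overlap either other group (unadjusted exact permutation p = 0.1 each, the lowest this test can give), and chow and berberine overlapped. Of these 12 leukocyte genes 6 fell under high-fat diet (median -0.88). That count was 0 without chow replicate 1, high-fat diet replicate 2 or high-fat diet replicate 3, 1 without chow replicate 3 and 3 without berberine replicate 2, and it was 0 with library totals alone, no filter or only the 2 groups compared, 2 with limma and 3 with the replicate block. In the berberine group against high-fat diet, 11 of the 12 leukocyte genes rose and 0 fell (median 1.42), where 15.8% of all tested genes rose. With 1 library left out, 9 to 11 of them rose. Of 10 tested macrophage genes 0 fell and 2 rose under high-fat diet (Cd14 and C1qb), where 31.8% of all tested genes passed the test. The count of higher genes was 1 without chow replicate 1 or 2, high-fat diet replicate 1 or 2, or berberine replicate 1. It was 4 without chow replicate 3. Summed FPKM of the macrophage list was 352 to 625 under chow, 417 to 709 under high-fat diet and 725 to 794 in the berberine group. Against the macrophage list the members' mean was 0.89 to 1.29 under chow, -0.60 to 0.02 under high-fat diet and 1.05 to 2.05 in the berberine group, without overlap between high-fat diet and either other group.

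Among non-immune cells, Epcam was at 1839 ± 56.8 CPM under chow, 1771 ± 157 under high-fat diet and 1780.3 ± 356 in the berberine group. Its log2 fold change under high-fat diet was -0.05 with a 95% interval from -0.47 to 0.36 (edgeR adjusted p = 0.852). The members' mean less that of the epithelial list was -4.17, -4.37 and -3.61 under chow and -3.95, -5.15 and -5.01 under high-fat diet, which overlapped. In the berberine group it was -2.61, -3.37 and -3.89, above every high-fat diet library. Of 11 epithelial genes, 3 fell (Cdx1, Cdx2 and Krt20) and 1 rose. Of all tested genes, 31.8% passed the test and 16.6% passed as lower, the shares beside which the counts of this paragraph stand. Smooth muscle genes had a summed FPKM of 3299 to 4850 under chow, 654 to 2942 under high-fat diet and 1688 to 2039 in the berberine group, and 5 of 10 fell under high-fat diet. That count was 1 without high-fat diet replicate 2, 2 without chow replicate 1, 3 without chow replicate 3 or high-fat diet replicate 1, and 10 without high-fat diet replicate 3, and it was 10 with DESeq2, 9 with limma and 1 with only the 2 groups compared. In the berberine group, where the members were highest, the smooth muscle sum was below every chow library. Of 8 genes linked to the M cells over follicles, 1 fell (Tnfrsf11a; 2 without high-fat diet replicate 1) and 3 rose under high-fat diet, among them Pglyrp1 and Marcksl1, which other epithelial and immune cells also express. Of 5 tested dendritic cell genes, 1 fell (Ccl22).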

How the data were processed

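Poly(A) RNA of mouse colonic tissue was sequenced with a dUTP strand-marking method and adapters carrying molecular identifiers, per the labels' protocols. Each gene of the deposited table has, in every library, an FPKM value and an estimated count, per the file headers. Per the submitters' processing notes, the mouse build was GRCm38 and the tools were HISAT2 2.0.4, StringTie 1.3.4d, cutadapt 1.9, UMI-tools, edgeR and DESeq2. The step each tool served, and whether counting used strand, is not given in the sources used here. Among counts of 1 to 40, 34.9% were multiples of 4 where 25% would be even, so 1 fragment appears to be worth about 4 estimated counts.

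Genes averaging 1 FPKM or more (14506, with 98.9% of the counts) were fitted together over all 9 libraries with edgeR 4.0.16 (quasi-likelihood, TMM scaling) in R 4.3.3. Genes with an adjusted p under 0.05 over all of them are said to rise or fall. SE was taken from the fold change and its F statistic, and the test was checked on simulated data. Precision is set by 3 libraries per group. The members and the gene lists were chosen with earlier results of these data known. The striated muscle, squamous epithelium and fat cell lists, and 2 of the library omissions (berberine replicates 1 and 2 together, and chow replicate 3 with berberine replicate 1), were added after values had been seen. Named list genes are the 3 with the smallest p in high-fat diet against chow, and others were chosen after their values were seen. Promoters are from RefSeq. Alternatives were DESeq2 size factors, library totals, DESeq2 1.42.0, limma 3.58.1 on log2(FPKM + 1) and log2(FPKM + 0.1), no filter, edgeR's own filter, only the 2 groups compared, a replicate block, counts divided by 4 and each library left out in turn. Results for 2 genes are not reported here.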

Additional observations from a re-analysis of the deposited data

How the results depend on the processing

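With 3 libraries per group, an exact test of single values cannot go below 0.1, and 1 library can decide a call. For high-fat diet against chow, 7 members were called. With 1 library left out it was between 2 and 7, where 3573 to 4325 of 14506 tested genes were called. Leaving out chow replicate 3 and berberine replicate 1 together gave 2 members, beside 3719 of the 14506 tested genes. For berberine against high-fat diet, 8 members were called. With 1 library left out it was between 7 and 8, where 2960 to 4740 of 14506 tested genes were called. Without berberine replicates 1 and 2 together, where 1 library stands for the group, the median over the members was 1.45. For berberine against chow 0 were called in all 21 alternatives. No member changed sign in the first 2 comparisons over 168 values each, and 4 of 168 values did in the third (Cd22 and Pax5). Ms4a1 was not called for high-fat diet against chow with library totals, limma on log2(FPKM + 1) or no filter, with adjusted p from 0.00605 to 0.0992 over its alternatives. Over all tested genes, berberine against chow gave 7 calls by edgeR and 384 by DESeq2. Library totals moved the median of all genes to 0.13 for high-fat diet against chow and -0.12 for berberine against high-fat diet, and the share of calls that were higher from 47.7% to 59.8% and from 51.4% to 40.9%. The labels do not say whether replicate numbers pair the libraries, and correlations between libraries cannot settle it. Of 9 same-number pairs, 2 correlated above 0.1, as did 3 of 18 other pairs. Of 9 libraries, 4 correlated best with a library of their own number. The replicate block called 7, 8 and 0 members in the 3 comparisons.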
